A study of Macaca mulatta with 10 samples.

Results

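Potassium channel genes were read in the whole testis of 10 juvenile rhesus macaques (Macaca mulatta). The genes were the loci of the deposited count table that carried a single gene symbol beginning with KCN and a further letter. For a symbol shared by several loci, only the most highly counted locus was taken. This gave 64 genes of 13196 distinct single symbols, in a table of 26813 loci. A further 7 loci joined a KCN symbol to another gene name, so their reads could not be divided and they were not used. The authors' transcript models named 21 KCN symbols without a locus in the table, and these were not analysed here.

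All 10 animals were labelled wild type, and each library was made from the right testis of its own animal, so the tests weigh group differences against animal-to-animal spread. The vehicle group (n = 3) held TP07, TP09 and TP11, aged 24, 14 and 15 months. Gonadotropin, a pulsatile infusion of FSH together with LH, was given for 48 h to TP08, TP10 and TP12 (n = 3), aged 22, 14 and 15 months. It was given for 96 h to TP15, TP16, TP17 and TP18 (n = 4), all aged 14 months. FSH acts on Sertoli cells and LH on Leydig cells. The duration of vehicle infusion is not given in the labels. The 96 h animals also carry the highest animal numbers, so a batch that followed those numbers cannot be told apart from the 96 h treatment.

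Potassium channels let potassium ions leave or enter a cell along their gradient, and so set its resting voltage and end its electrical signals. Voltage-gated alpha subunits form pores that open on depolarisation. The silent voltage-gated subunits form no working channel alone and alter the pores they join. Inward rectifiers pass current best near rest, 2-pore channels carry a steady leak, and a further family opens with internal calcium or sodium. Auxiliary subunits do not form the pore and change its gating or its transport to the membrane. In the male germ line the best known member is KCNU1, the pH-sensitive potassium channel of sperm, which is grouped here with the calcium- or sodium-activated genes. The 64 genes fell into 22 voltage-gated alpha, 7 silent voltage-gated, 9 inward rectifier, 8 2-pore, 8 calcium- or sodium-activated and 10 auxiliary genes.

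Totals over the loci of the table ran from 21824233 to 30375928 counts, and 3 counts equalled 0.137 CPM, the count scaled by the library total, in the shallowest library. Marker genes of other cell types moved with the groups. Of 5 measured Leydig markers 4 rose at each time, and their summed level was 182 to 334 CPM in vehicle, 1571 to 1936 CPM at 48 h and 1169 to 1486 CPM at 96 h. The sum of 6 myoid and smooth muscle markers was 353 to 392, 569 to 872 and 495 to 1129 CPM in the same order. Of 4 measured markers of undifferentiated spermatogonia 1 fell at 48 h and 2 at 96 h, and their sum was 149 to 213, 77.7 to 92.8 and 73.3 to 123 CPM. Of 5 germ cell markers 1 fell at 48 h and 4 at 96 h, with sums of 338 to 465, 240 to 347 and 187 to 302 CPM. The 4 markers of dividing cells, which all rose at 96 h, summed to 96.1 to 205, 168 to 313 and 639 to 779 CPM. The 6 measured Sertoli markers summed to 2220 to 2832 CPM over all animals. Of these 6, 2 rose at 48 h, and 3 rose and 1 fell at 96 h. The sum of 7 nerve and Schwann cell markers was 24.6 to 41.1, 99.8 to 212 and 152 to 179 CPM. Only 2 of these 7 rose and 1 fell at 48 h, with a median log2 change of 0.16. At 96 h 2 rose and none fell, with a median of 0.48. SOX10, which defines Schwann cells, was at 1.51 to 1.56 CPM in the group means. The pericyte, endothelial and macrophage sums overlapped between vehicle and each gonadotropin group, at 96 h by less than 1 CPM for pericytes. At 96 h 2 of 5 pericyte markers and 1 of 5 macrophage markers rose. The 1 measured epididymis marker, PAX8, lay at 3.8 to 9.54 CPM. The part of any of these lists in the changes below was not tested. In RNA from whole testis, fewer cells of a type and less RNA per cell cannot be told apart.

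Most potassium channel genes were low. Per length, as TMM-scaled CPM per kilobase of exon (RPKM), their median level was 0.899, and that of all loci standing for a single symbol was 6.47. The range ran from 0.077 RPKM for KCNS2, a silent subunit, to 8.29 RPKM for KCNH2, the ether-a-go-go related channel known from cardiac repolarisation. The 8 genes with the highest levels made up 44.3% of the summed RPKM of all 64, and the 11 highest made up 51.4%. The 64 mean counts ran from 21.1 to 1237.8, and the lowest count of any member in any library was 5.

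The voltage-gated alpha genes KCNH2 and KCNA7 held the first 2 places. KCNH2 stood at 6.81 ± 0.53 RPKM (SD) in the 3 vehicle animals, 9.37 ± 1.42 in the 3 animals at 48 h and 8.58 ± 1.45 in the 4 at 96 h. KCNA7, a shaker-related channel, stood at 6.73 ± 1.37, 6.43 ± 1.00 and 6.66 ± 2.18 RPKM in the same groups, so the animals of both genes overlapped in vehicle and at 96 h, whereas at 48 h every KCNH2 value lay above every KCNA7 value. The auxiliary KCNIP3, a calcium-binding protein that joins KCND channels, came next in the mean over all animals with 5.76 RPKM. After it came the silent subunit KCNG1 with 4.43 RPKM and the inward rectifier KCNJ3 with 3.99 RPKM. In vehicle alone the inward rectifiers KCNJ5, at 5.56 ± 0.66 RPKM, and KCNJ3, at 5.32 ± 0.62 RPKM, followed KCNH2 and KCNA7 directly. The silent subunit KCNG3 stood at 3.89 RPKM over all animals. Leading the 2-pore genes were KCNK1 with 1.77 RPKM and the acid-sensitive family member KCNK15 with 1.44 RPKM. Of the genes grouped as calcium- or sodium-activated, the sodium-activated KCNT1 reached 2.18 RPKM and the pH-sensitive sperm channel KCNU1 1.33 RPKM. KCNE4, an auxiliary subunit of voltage-gated channels, reached 2.1 RPKM. The marker genes of spermatids are not reported here, so the level of KCNU1 has no spermatid list beside it.

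**Figure D1:**
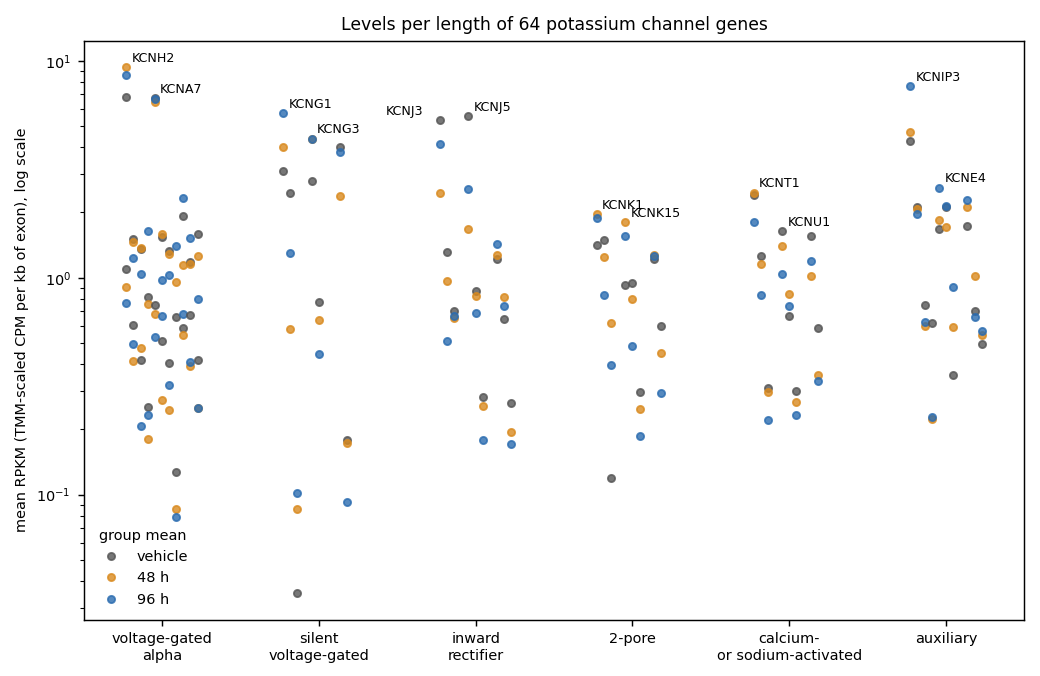
Mean level per length (RPKM, log scale) of each of the 64 potassium channel genes in vehicle (n = 3), 48 h (n = 3) and 96 h (n = 4) animals, grouped by family, with the 2 highest genes of each family named. KCNH2 and KCNA7 lie at the top with means over all animals of 8.29 and 6.61 RPKM, and most genes lie near or below the median of 0.899 RPKM.

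What 48 h of gonadotropin changed was asked first. KCNJ3 and KCNJ5, which encode partner subunits of the G protein-gated inward rectifier, fell to well under their vehicle levels. KCNS3, a silent subunit, and KCNMB2, an inactivating beta subunit of the calcium-activated channel encoded by KCNMA1, also fell. KCNK3, an acid-sensitive 2-pore leak channel, was the only member that rose. Thus 1 member rose and 4 fell at an adjusted p under 0.05 by edgeR's quasi-likelihood test with Benjamini-Hochberg adjustment over all 26813 loci. Of all loci standing for a single symbol, 14.8% rose and 3.21% fell in the same comparison, and of all 26813 loci 8.53% rose and 3.67% fell. All 5 of these calls were lost when the animals over 20 months, TP07 and TP08, were both left out. Over all loci 696 then rose and 154 fell, against 2288 and 985 in the main fit. Of the 50 members at 1 CPM or more in all libraries, 0 rose and 3 fell. In either direction the calls came to 7.81% of the 64 members, 18% of loci standing for a single symbol and 12.2% of all loci. The median log2 fold change of the 64 genes was -0.11, against 0.08 for loci standing for a single symbol and -0.07 for all loci. In 22 members the vehicle and 48 h animals did not overlap, which is 34.4%, where 42.1% of loci standing for a single symbol and 36.1% of all loci did not. At an unadjusted p under 0.05 there were 15 members.

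Animal values below are TMM-scaled CPM, and each series runs in the order TP07, TP09 and TP11 for vehicle, TP08, TP10 and TP12 for 48 h and TP15 to TP18 for 96 h. KCNJ5 lies on chromosome 14 (rheMac8, 121674776 to 121704963, plus strand) and is also known from the adrenal cortex, where it holds the resting voltage of aldosterone-producing cells. It stood at 38.6, 33.5 and 30.6 CPM in vehicle, at 7.39, 10.2 and 13.4 CPM at 48 h and at 14.6, 12.8, 9.97 and 25.6 CPM at 96 h. Every vehicle animal lay above every gonadotropin animal, and the closest was TP18. At 48 h KCNJ5 was 3.31-fold lower, a log2 change of -1.73 ± 0.33 (SE), with an adjusted p of 0.00796 by edgeR. The call held with each single animal left out.

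KCNJ3 encodes the partner of KCNJ5 in the heteromeric channel that slows the heart beat. It lies on chromosome 12 (41369277 to 41532798, plus strand). Its level was 61.5, 71.1 and 56.7 CPM in vehicle, 22.1, 39.7 and 25.5 CPM at 48 h, and 62.0, 30.6, 58.7 and 45.1 CPM at 96 h. All 48 h animals lay below all vehicle animals, whereas the 96 h animals spanned both ranges. At 48 h KCNJ3 was 2.17-fold lower (log2 change -1.12 ± 0.28, SE, adjusted p 0.0262 by edgeR). The call was lost without TP07, TP08, TP09, TP11 or TP12.

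Because these were also the 2 most abundant inward rectifiers, the summed level of the family moved with them. The 9 inward rectifier genes summed to 117 ± 9.19 CPM (SD) in the 3 vehicle animals, 57.7 ± 9.35 CPM in the 3 animals at 48 h and 81.1 ± 17.4 CPM in the 4 at 96 h. KCNJ3 and KCNJ5 made up 82.1% to 84.7% of that sum in vehicle, 61.1% to 74.7% at 48 h and 76.6% to 82.1% at 96 h. The other 7 summed to 18.9 to 20.5, 16.9 to 19.1 and 13.2 to 20.8 CPM. Thus the vehicle and 48 h ranges of the sum without KCNJ3 and KCNJ5 overlapped, while those of the whole family lay far apart. The summed markers of undifferentiated spermatogonia were lower in every gonadotropin animal than in every vehicle animal, and those of germ cells at 96 h but not at 48 h, where TP08 lay above TP09. Their part in the fall of KCNJ3 and KCNJ5 was not tested.

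KCNK3 lies on chromosome 13 (26953340 to 26996937, plus strand). Its level was 0.793, 0.798 and 0.678 CPM in vehicle, 7.35, 2.56 and 1.81 CPM at 48 h, and 3.0, 1.85, 3.75 and 1.41 CPM at 96 h. The vehicle animals lay close together and below every gonadotropin animal, and TP08 was the highest of all 10. At 48 h KCNK3 was 5.15-fold higher (log2 change 2.36 ± 0.54, SE, adjusted p 0.0177 by edgeR). Without TP08 the change was 1.53 on the log2 scale and no longer passed the test, and the call was also lost without TP07, TP09 or TP11. The table kept loci that reached 1 CPM in at least 3 libraries, which KCNK3 did in 0 vehicle, 3 48 h and 4 96 h libraries. A gene that entered through the gonadotropin libraries had to be higher there, so the direction of this change was in part set by the filter. The Leydig, smooth muscle and nerve marker sums were also above vehicle in every gonadotropin animal, although only 2 of the 7 nerve markers rose at each time. The part of these lists was not tested.

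KCNMB2 (chromosome 2, 114428540 to 114723746, minus strand) stood at 1.49, 4.67 and 2.39 CPM in vehicle, 0.944, 1.37 and 0.777 CPM at 48 h, and 0.775, 0.977, 1.52 and 0.940 CPM at 96 h. TP09 was the highest, the 48 h animals all lay below vehicle, and TP17 just passed TP07. Its counts were low, 16 to 117 per library. It reached 1 CPM in 3 vehicle libraries, 1 48 h and 1 96 h library, so it met the filter only with the vehicle libraries and its direction was in part set by that. At 48 h KCNMB2 was 2.75-fold lower (log2 change -1.46 ± 0.42, SE, adjusted p 0.0464 by edgeR), a call that 8 of the 10 omissions of a single animal removed. KCNS3 ranged from 12.2 to 20.5 CPM in vehicle and from 3.04 to 4.43 CPM at 48 h, without overlap, and from 2.02 to 14.9 CPM at 96 h. It was 4.24-fold lower at 48 h (log2 change -2.08 ± 0.59, SE, adjusted p 0.0484 by edgeR), and this call too was lost in 8 of the 10 omissions, with age as a covariate and with age class as a block. KCNMA1, which encodes the pore, did not pass the test in any comparison, with log2 changes of -0.17 ± 0.26 at 48 h and -0.37 ± 0.24 at 96 h.

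By family, none of the 22 voltage-gated alpha genes passed edgeR's test at 48 h, with 4 at an unadjusted p under 0.05, a median log2 change of -0.13 and a range of -0.89 to 0.54. DESeq2 called 3 of them and exactTest 1. None of the 8 calcium- or sodium-activated genes passed by edgeR, DESeq2 or exactTest, with 2 at an unadjusted p under 0.05 and a median of -0.15. Of the 7 silent subunits 1 fell, of the 10 auxiliary genes 1 fell, of the 9 inward rectifiers 2 fell, and of the 8 2-pore genes 1 rose. The 67 measured genes of other ion channel families (sodium, calcium, chloride, TRP, ANO, P2RX and ASIC) gave 3 that rose and none that fell, with 5 lower at an unadjusted p under 0.05 and a median of -0.03.

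**Figure D2:**
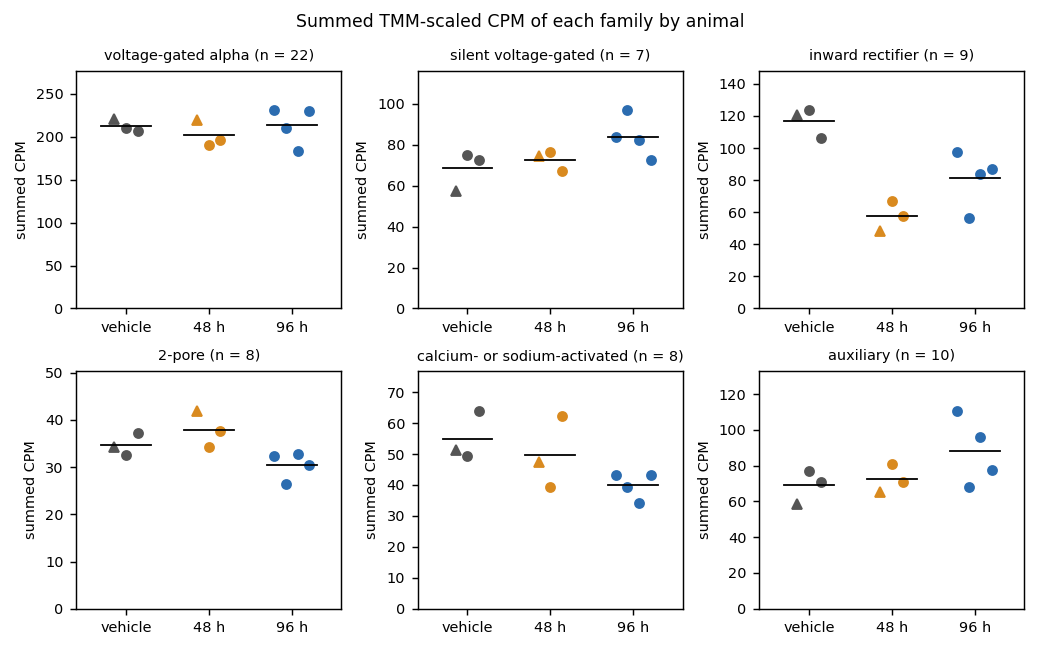
Summed TMM-scaled CPM of the members of each family in every animal, with group means as bars and animals over 20 months as triangles. The inward rectifiers summed to 106 to 124 CPM in vehicle and to 48.2 to 66.9 CPM at 48 h, while the voltage-gated alpha genes summed to 207 to 221 and 190 to 219 CPM.

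The second comparison set 96 h of gonadotropin against vehicle. The voltage-gated alpha gene KCNA2, the silent subunits KCNG1 and KCNS2, the auxiliary KCNIP3 and KCNMB1 and the 2-pore gene KCNK3 rose. The voltage-gated alpha genes KCND2 and KCNH1, the silent KCNG2, the inward rectifiers KCNJ4 and KCNJ5, the 2-pore genes KCNK2 and KCNK5, the calcium-activated KCNN3 and the auxiliary KCNMB2 fell. This made 6 that rose and 9 that fell at an adjusted p under 0.05 (edgeR), where 17.2% of loci standing for a single symbol rose and 6.66% fell, and 10.6% and 6.89% of all loci. Of the 50 members at 1 CPM or more in all libraries, 4 rose and 7 fell. In either direction the calls came to 23.4% of the 64 members, 23.9% of loci standing for a single symbol and 17.5% of all loci. With upper-quartile scaling, which shifted the median log2 change of all loci by -0.148, the split was 4 that rose and 14 that fell. The members' median log2 change was -0.32, against 0.08 for loci standing for a single symbol and -0.01 for all loci. Vehicle and 96 h animals did not overlap in 21 members, or 32.8%, where 37.5% of loci standing for a single symbol and 30.7% of all loci did not. At an unadjusted p under 0.05 there were 30 members. A block for age class, which set animals of 14, 15 and over 20 months apart, removed 14 of the 15 calls, and 14 were lost without TP07 and TP08. The call that held in both was that of KCNMB2, whose direction the filter in part set and whose groups overlapped at 96 h. Over all loci 1350 rose and 412 fell with the block, and 1447 and 493 without TP07 and TP08. In the main fit these were 2836 and 1848. TP09 was the only vehicle animal of the same age as the 96 h group, so age and treatment cannot be fully told apart. The 48 h and 96 h comparisons share their 3 vehicle animals.

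KCNA2, a delayed rectifier of axons, lies on chromosome 1 (111618685 to 111633015, minus strand). It stood at 10.2, 11.5 and 8.56 CPM in vehicle, 9.81, 9.56 and 8.80 CPM at 48 h, and 19.5, 27.5, 13.3 and 21.6 CPM at 96 h. Vehicle and 48 h animals covered the same range, and all 96 h animals lay above it. Against vehicle KCNA2 was 2.03-fold higher at 96 h (log2 change 1.02 ± 0.22, SE, adjusted p 0.0108 by edgeR), a call lost without TP11. At 48 h the log2 change was -0.10 ± 0.23. Several marker sums also differed between groups, as given above. The nerve sum, with only 2 of its 7 markers that rose at 96 h, was above vehicle already at 48 h. It was 99.8 to 212 CPM at 48 h and 152 to 179 CPM at 96 h. The dividing cell sum was 168 to 313 CPM at 48 h and 639 to 779 CPM at 96 h. The part of these lists was not tested.

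KCNH1, an ether-a-go-go channel gene best known from brain, lies on chromosome 1 (155382890 to 155845658, plus strand). Its level was 18.8, 10.0 and 14.2 CPM in vehicle, 12.8, 9.70 and 11.4 CPM at 48 h, and 3.92, 9.84, 7.24 and 7.76 CPM at 96 h. TP16 lay just under TP09, so the groups touched without overlapping, and TP15 was the lowest. KCNH1 was 1.99-fold lower at 96 h (log2 change -0.99 ± 0.29, SE, adjusted p 0.0370 by edgeR), and the call was lost without TP07, TP11, TP12, TP15, TP17 or TP18. The A-type channel gene KCND2 had a log2 change of -0.72 ± 0.22 at 96 h (adjusted p 0.0471 by edgeR) and of -0.79 ± 0.24 at 48 h (adjusted p 0.0567), so its change was of like size at both times and passed the test at 1 of them. Its call at 96 h was lost with RLE scaling and without any of 7 animals.

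Among the silent subunits, KCNG1 (chromosome 10, 13370312 to 13390159, plus strand) stood at 7.60, 12.8 and 8.53 CPM in vehicle, 14.7, 10.8 and 11.9 CPM at 48 h, and 19.7, 14.9, 16.7 and 20.2 CPM at 96 h. All 96 h animals lay above all others, and the 48 h animals overlapped vehicle. KCNG1 was 1.86-fold higher at 96 h (log2 change 0.89 ± 0.20, SE, adjusted p 0.0147 by edgeR), a call lost without TP07 or TP11. KCNG2, of the same subfamily, went the other way with a log2 change of -0.79 ± 0.23 (adjusted p 0.0388 by edgeR), and 8 of the 10 omissions of a single animal removed its call. KCNS2 changed by 1.51 ± 0.44 on the log2 scale (adjusted p 0.0394 by edgeR), from 0.372 ± 0.165 CPM in vehicle (SD, n = 3) to 1.08 ± 0.378 CPM at 96 h (n = 4). It reached 1 CPM in 0 vehicle libraries, so like KCNK3 it was in the table only through gonadotropin libraries, and its counts were 5 to 35 per library. KCNS3, which fell at 48 h, had a log2 change of -0.90 ± 0.53 at 96 h and did not pass the test (adjusted p 0.255 by edgeR).

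KCNJ4, a strong inward rectifier (chromosome 10, 80401536 to 80440783, minus strand), stood at 4.0, 2.71 and 2.42 CPM in vehicle, 1.99, 1.88 and 2.85 CPM at 48 h, and 1.26, 1.19, 0.709 and 1.57 CPM at 96 h. All 96 h animals lay below all others. KCNJ4 was 2.56-fold lower at 96 h (log2 change -1.35 ± 0.30, SE, adjusted p 0.0126 by edgeR), a call lost without TP07. KCNJ5 was 2.17-fold lower at 96 h (log2 change -1.12 ± 0.29, adjusted p 0.0278 by edgeR), and its call at 96 h was lost without TP07, TP09, TP11, TP15, TP16 or TP17. For its partner KCNJ3 the log2 change at 96 h was -0.36 ± 0.25 (adjusted p 0.339 by edgeR).

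Of the 2-pore genes, KCNK5 (chromosome 4, 40181448 to 40222452, minus strand), which responds to external pH, stood at 8.09, 6.23 and 6.78 CPM in vehicle, 6.31, 5.01 and 6.25 CPM at 48 h, and 4.31, 3.58, 2.99 and 4.78 CPM at 96 h. The 96 h animals were the lowest of all 10. KCNK5 was 1.80-fold lower at 96 h (log2 change -0.84 ± 0.21, SE, adjusted p 0.0195 by edgeR), a call lost without TP07 or TP11. KCNK2, which opens on membrane stretch and with lipids, lies on chromosome 1 (151255904 to 151488465, minus strand).

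KCNK2 stood at 3.60, 4.39 and 5.98 CPM in vehicle, 4.96, 2.38 and 4.43 CPM at 48 h, and 2.28, 2.79, 2.18 and 2.31 CPM at 96 h. The 96 h animals lay close together below vehicle, and TP10 lay among them. It was 1.95-fold lower at 96 h (log2 change -0.96 ± 0.28, SE, adjusted p 0.0364 by edgeR), a call lost without any of 6 animals. KCNK3 was 3.27-fold higher at 96 h (log2 change 1.71 ± 0.52, adjusted p 0.0451 by edgeR), and this call was lost with upper-quartile scaling and without any of 5 animals. Of the 8 leak channel genes 1 rose, namely KCNK3, which met the filter only through gonadotropin libraries, and 2 fell. The whole family summed to 32.5 to 37.2 CPM in vehicle and 26.5 to 32.7 CPM at 96 h.

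KCNMB1, the beta subunit that gives smooth muscle channels their calcium sensitivity, lies on chromosome 6 (168632449 to 168647052, minus strand). It stood at 0.991, 1.84 and 2.2 CPM in vehicle, 2.56, 2.63 and 3.17 CPM at 48 h, and 6.25, 3.04, 4.30 and 3.45 CPM at 96 h. Every gonadotropin animal lay above every vehicle animal, with TP15 and TP17 highest. KCNMB1 was 2.53-fold higher at 96 h (log2 change 1.34 ± 0.33, SE, adjusted p 0.0193 by edgeR), a call lost without TP07, and at 48 h its log2 change was 0.74 ± 0.34 (adjusted p 0.187). The smooth muscle marker sum, with 3 of 6 markers that rose at 48 h and 4 of 6 at 96 h, was likewise highest in TP15 at 1129 CPM and in TP17 at 976 CPM. At 48 h the order differed, with sums of 638, 872 and 569 CPM in TP08, TP10 and TP12. KCNMB1 was there highest in TP12, which had the lowest of these sums. Within the 96 h group several other marker sums were also highest in TP15 and TP17, the shallowest libraries, as given under other observations below. The pericyte sum was 205 to 283 CPM in vehicle and 283 to 437 CPM at 96 h, when 2 of its 5 markers rose. The part of these markers in the rise of KCNMB1 was not tested. Of its exon length 23.0% overlaps an unnamed locus on the opposite strand, and the strand setting of the authors' counting is not given in the sources used here.

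KCNIP3 (chromosome 13, 91682914 to 91775604, plus strand) stood at 14.0, 18.8 and 14.8 CPM in vehicle, 15.0, 18.7 and 18.6 CPM at 48 h, and 33.7, 18.9, 36.1 and 24.6 CPM at 96 h. TP16 lay only just above the highest vehicle animal, and TP15 and TP17 were highest. KCNIP3 was 1.78-fold higher at 96 h (log2 change 0.84 ± 0.22, SE, adjusted p 0.0242 by edgeR), a call lost without TP07, TP11, TP15 or TP17. The macrophage marker sum was 75.8 to 152 CPM in vehicle and 138 to 263 CPM at 96 h, with 1 of 5 markers that rose at 96 h. It was also highest in TP15 and TP17, as were several other marker sums given under other observations below. Their part was not tested. KCNMB2 was 2.70-fold lower at 96 h (log2 change -1.43 ± 0.39, adjusted p 0.0303 by edgeR), although TP17 overlapped vehicle, and the call was lost without TP09, TP11, TP15, TP16 or TP18. KCNN3, a small-conductance calcium-activated channel gene, had a log2 change of -0.81 ± 0.24 (adjusted p 0.0422 by edgeR), lost without any of 7 animals.

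**Figure D3:**
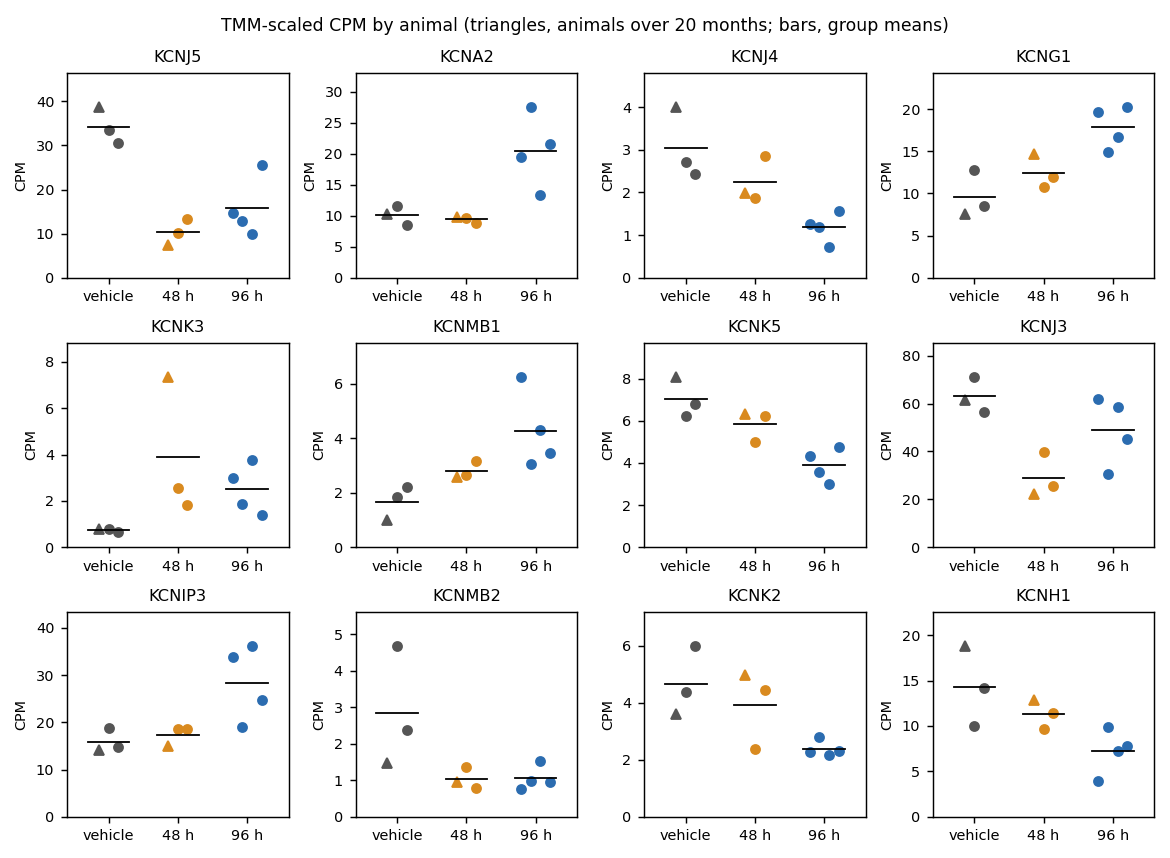
TMM-scaled CPM of the 12 members with the smallest p in any comparison, by animal, with group means as bars and animals over 20 months as triangles. KCNJ5 lies at 30.6 to 38.6 CPM in vehicle and at 25.6 CPM or below in every gonadotropin animal, whereas KCNA2 stays near 10.1 CPM in vehicle and 9.39 CPM at 48 h and reaches 20.5 CPM in the mean at 96 h.

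Across families at 96 h, the voltage-gated alpha genes gave 1 that rose and 2 that fell of 22 (median log2 change -0.32), and the auxiliary genes 2 and 1 of 10 (median 0.11). The silent subunits gave 2 and 1 of 7 (median -0.08). Of the 9 inward rectifiers 2 fell (median -0.36) and of the 8 calcium- or sodium-activated genes 1 fell (median -0.45). None in these families rose by edgeR, exactTest or DESeq2, and none was higher at an unadjusted p under 0.05. Of the 67 other ion channel genes 1 rose and 6 fell, with a median of -0.04. All 64 members summed to 543 to 568 CPM in vehicle, 488 to 497 CPM at 48 h and 497 to 598 CPM at 96 h, so the 48 h animals lay below vehicle and the 96 h animals spanned it. From vehicle to 48 h the mean total went from 557 to 492 CPM, KCNJ3 from 63.1 to 29.1 CPM and KCNJ5 from 34.3 to 10.3 CPM. These genes thus made up most of the lower total at 48 h. Of the family sums, only that of the inward rectifiers did not overlap between vehicle and 48 h.

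The comparison of 96 h with 48 h asks what changed between the infusion times. KCNA2 was the only member that rose, 2.18-fold (log2 change 1.13 ± 0.22, SE, adjusted p 0.0379 by edgeR), and none fell. Of loci standing for a single symbol 1.11% rose and 0.455% fell, and of all loci 0.817% and 0.25%. In either direction this was 1.56% of the members, 1.56% of loci standing for a single symbol and 1.07% of all loci. At an unadjusted p under 0.05 there were 14 members, 7 of them lower, while exactTest called 2 that rose and 1 that fell and DESeq2 4 and 1. All 4 of the 96 h animals lay above all 3 of the 48 h animals for KCNA2, by at least the step from 9.81 to 13.3 CPM. The call was nevertheless lost under each of the 10 omissions of a single animal and with upper-quartile scaling. In 8 members, or 12.5%, the groups did not overlap, where 19.9% of loci standing for a single symbol and 16.5% of all loci did not. KCNJ3 and KCNJ5, the members that fell at 48 h with the highest levels, had log2 changes of 0.75 ± 0.26 (adjusted p 0.164 by edgeR) and 0.61 ± 0.30 (adjusted p 0.278) from 48 h to 96 h. Neither change passed the test.

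Over the 3 comparisons 17 members passed the test at least once and 47 did not. KCNJ5, KCNK3 and KCNMB2 passed in both comparisons against vehicle, which share their vehicle animals, and the filter in part set the direction of KCNK3 and KCNMB2. Among the members without a call were the most abundant, KCNH2, with log2 changes of 0.46 ± 0.15 at 48 h (adjusted p 0.0767 by edgeR) and 0.34 ± 0.15 at 96 h, and KCNA7, with -0.07 ± 0.24 and -0.01 ± 0.23. The 95% interval of the KCNA7 change at 96 h, from -0.46 to 0.43, spans 0. KCNU1 had log2 changes of -0.24 ± 0.27 and -0.65 ± 0.25 (adjusted p 0.0942 by edgeR at 96 h).

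**Figure D4:**
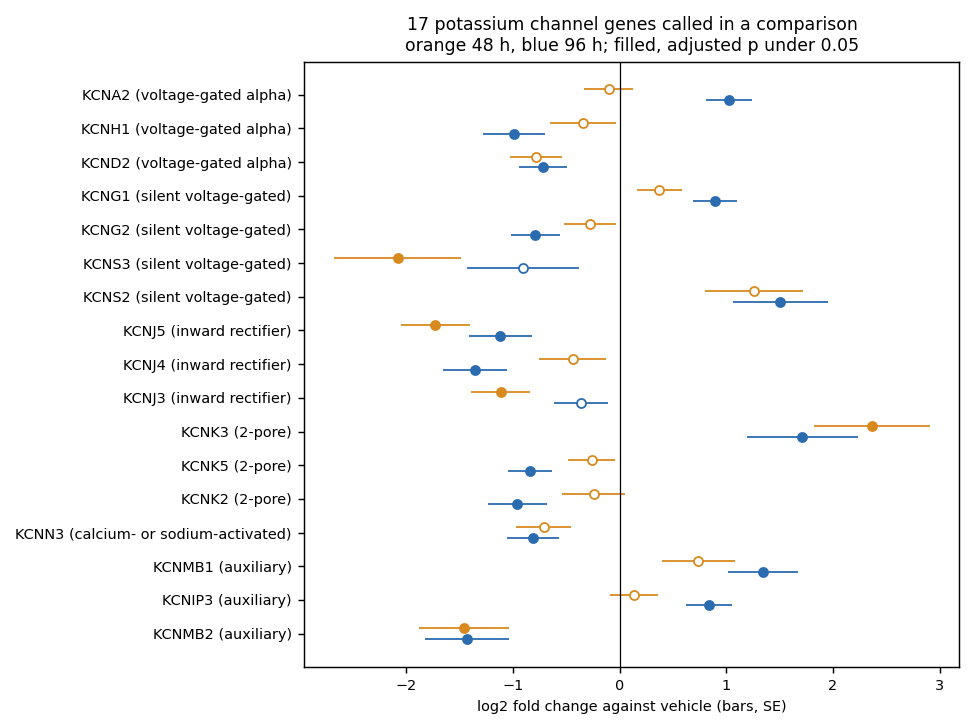
Log2 fold change against vehicle (points) with its SE (bars) at 48 h and 96 h for the 17 members that passed the test in any comparison, by family, filled where the adjusted p was under 0.05. KCNJ5 lies at -1.73 and -1.12 and KCNK3 at 2.36 and 1.71, while KCNA2 lies at -0.10 and then 1.02.

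In the authors' deposited table, which used edgeR's exact test, 1 member was higher and 4 were lower at 48 h at an FDR under 0.05, and all were the same genes as above. At 96 h the authors' deposited table gave 7 higher and 7 lower, of which 6 and 6 were shared. The others called there, and not by the quasi-likelihood test, were KCND1 and KCNK10. From 48 h to 96 h the authors' deposited table gave 2 higher and 1 lower, and KCNA2 was shared.

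Genes that work with potassium channels were read from lists of partner subunits, HCN channels and potassium pumps and cotransporters. Of 8 measured partner subunits, DPP6, an auxiliary subunit of KCND channels, fell at both times. It went from 10.0 ± 6.06 CPM (SD) in the vehicle animals to 3.68 ± 1.11 CPM at 48 h and 3.17 ± 0.443 CPM at 96 h, with log2 changes of -1.44 ± 0.40 and -1.66 ± 0.37 (SE, adjusted p 0.0377 and 0.0129 by edgeR). CNTNAP2, which clusters KCNA channels along axons, fell at 96 h by 0.63 ± 0.16 on the log2 scale (adjusted p 0.0228 by edgeR). Thus 1 of the 8 fell at 48 h and 2 at 96 h. Of loci standing for a single symbol 3.21% fell at 48 h and 6.66% at 96 h, and of all loci 3.67% and 6.89%. How the calls of these lists fared with age in the fit or without single animals is not reported here. None of the 4 HCN genes, which encode pacemaker channels, passed the test of edgeR, exactTest or DESeq2 in any comparison, nor had any an unadjusted p under 0.05, and the most abundant, HCN4, stood at 3.77 ± 0.755 CPM in vehicle (SD, n = 3).

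Of 21 measured pump and cotransporter genes, 4 rose and none fell at 48 h, with 4 lower at an unadjusted p under 0.05 and 1 lower by DESeq2 and by exactTest, and 4 rose and 1 fell at 96 h. The 4 that rose were 19.0% of the list at each time, near the share of loci standing for a single symbol. Of those loci 14.8% rose at 48 h and 17.2% at 96 h, and of all loci 8.53% and 10.6%. WNK3, a kinase that controls chloride and potassium cotransport, went from 38.7 ± 5.40 CPM (SD) in the vehicle animals to 71.5 ± 14.6 CPM at 48 h and 102 ± 16.5 CPM at 96 h, with log2 changes of 0.89 ± 0.17 and 1.40 ± 0.17. FXYD6, a regulator of the sodium pump, changed by 0.53 ± 0.11 and 0.63 ± 0.10, and the sodium pump subunit ATP1B3 by 0.39 ± 0.10 and 0.36 ± 0.10. ATP4A, the gastric proton pump subunit, rose at 48 h by 1.06 ± 0.21. WNK1 rose at 96 h by 0.53 ± 0.09, and SLC12A1, a sodium, potassium and chloride cotransporter known from kidney, fell by 0.87 ± 0.26. From 48 h to 96 h WNK1 was the only gene of this list that passed the test, with a log2 change of 0.46 ± 0.09 (adjusted p 0.0488 by edgeR).

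For a pair of symbols the strand of the locus matters. The KCNAB1 locus with the highest mean count, which stands for the symbol above, is a single-exon model of 17608 bases on the strand opposite to the gene (chromosome 2, 143599636 to 143617243, minus strand), with a mean count of 249.6. The locus on the strand of the gene had a mean count of 42.8 and log2 changes of -0.16 ± 0.30 at 48 h and -0.55 ± 0.28 at 96 h, neither of which passed the test. KCNK15 also has a second locus on the opposite strand, with a mean count of 29.7, and this locus fell at 96 h by 1.1 ± 0.28 on the log2 scale (adjusted p 0.0227 by edgeR). The KCNK15 gene itself had log2 changes of 0.96 ± 0.32 at 48 h and 0.76 ± 0.31 at 96 h and did not pass the test (adjusted p 0.0767 and 0.109 by edgeR). The transcript models also held many splice forms, with 407 models for the 64 genes, a median of 5 each and 54 for KCNMA1. In 46 members at least 1 model carried a junction outside the annotation. The counts are per locus and do not separate these forms.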

How the data were processed

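The deposited counts are whole numbers for each locus in 10 libraries of strand-specific total RNA. The submitters' processing notes name HTSeq 0.6.1p1, TopHat2 2.1.1 with Bowtie2 2.2.8, cutadapt 1.9.1, edgeR, Cufflinks 2.2.1 and the build rheMac8, without their roles. The authors' deposited CPM values divide each count by the library's total and were not used for tests, and each locus in the table passes 1 CPM in no fewer than 3 libraries. The authors' deposited log2 fold changes and p-values were used only where that table is named. The counting mode and strand setting are not given in the sources used here.

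The main test was the robust quasi-likelihood F test of edgeR 4.0.16 (R 4.3.3) after TMM scaling, in 1 fit of 3 group means over all 10 libraries. P-values were adjusted by Benjamini-Hochberg over 26813 loci, with a threshold of 0.05. filterByExpr dropped 0 loci. The common dispersion gave a coefficient of variation of 0.259. The SE was taken from the F statistic, and 95% intervals are 1.96 SE. RPKM divides TMM-scaled CPM by the exon union of the deposited transcript models, whose coordinates are on rheMac8. Chromosome names were taken by gene symbol from the reference gene table. The tests were checked on simulated counts.

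Members, families, lists and the naming rule were chosen with earlier results of these data known. That rule gives animal values for the 12 members with the smallest p among those called, fold changes for the other 5, and the 2 highest per length of each family. Alternatives were RLE and upper-quartile scaling, no filter, a mean count of at least 50, age as a covariate or block, omission of animals over 20 months or of each animal, fits of 2 groups, exactTest, DESeq2 1.42.0 and summed loci. The sense locus of KCNAB1 was added after seeing the data. Floors and intervals cover counting error only where they are of counts. Some genes that the naming rule picked are not reported here.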

Additional observations from a re-analysis of the deposited data

Results flagged for a closer look

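KCNA2 was the only member whose gonadotropin effect differed between the infusion times by a test of the difference itself. Its log2 fold change from 48 h to 96 h was 1.13 ± 0.22 (SE, adjusted p 0.0379 by edgeR), with log2 changes against vehicle of -0.10 ± 0.23 at 48 h and 1.02 ± 0.22 at 96 h. All 4 of the 96 h animals, at 13.3 to 27.5 CPM, lay above all 3 of the 48 h animals, at 8.80 to 9.81 CPM. The change from 48 h to 96 h ranged from 0.95 to 1.27 over all alternatives, and its adjusted p from 0.000131 to 0.320. The 96 h animals were all aged 14 months and the 48 h animals 14, 15 and 22 months, so age and infusion time are in part confounded.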

How the results depend on the processing

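None of the 21 called pairs of member and comparison changed sign in any of the alternatives run, but many calls were lost. Main counts were 1 that rose and 4 that fell at 48 h, 6 and 9 at 96 h, and 1 and 0 from 48 h to 96 h. With neither animal over 20 months they were 0 and 0, 0 and 1, and 0 and 0. With age class as a block they were 1 and 3, 0 and 1, and 0 and 0, and with age as a covariate 1 and 3, 4 and 2, and 0 and 0. Over all loci the main counts were 2288 and 985, 2836 and 1848, and 219 and 67. With neither animal over 20 months the counts over all loci were 696 and 154, 1447 and 493, and 2 and 1. With age class as a block those were 2278 and 949, 1350 and 412, and 171 and 7. With age as a covariate those were 2486 and 1057, 2210 and 861, and 76 and 19. For the members, fits of 2 groups alone gave 2 and 3, 5 and 5, and 0 and 0. Upper-quartile scaling gave 1 and 5, 4 and 14, and 0 and 0, and shifted the median log2 change of all loci by -0.126 at 48 h and -0.148 at 96 h. The exactTest gave 1 and 5, 7 and 12, and 2 and 1. DESeq2 gave 3 and 7, 8 and 12, and 4 and 1, with 6 adjusted p-values of members given as NA. Over omissions of each animal the counts ranged from 0 to 2 and 1 to 4 at 48 h, 1 to 7 and 1 to 11 at 96 h, and 0 to 1 and 0 to 0 from 48 h to 96 h. RLE scaling, a mean count of at least 50 and summed loci kept each count within 1.5 times. The fit with no filter could not differ from the main fit, because filterByExpr dropped 0 loci and the authors' 1 CPM filter stayed in place. Nor could the sense locus of KCNAB1 change a count, because neither locus of that symbol passed the test in any comparison. The causes of the lost calls were not tested. The groups share no replicate numbers, so the only matched fit was the one with age class as a block. This block sets TP07 with TP08 and TP11 with TP12. It sets TP09 with TP10 and with all of the 96 h animals, TP15 to TP18. Depth limits the members below about 1 CPM, such as KCNS2.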

Other observations

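Within the 96 h group, several members differed widely between animals, a pattern chosen after the values were seen. KCND1, an A-type channel gene, stood at 11.4, 4.52, 11.7 and 5.49 CPM in TP15, TP16, TP17 and TP18, against 2.68 to 5.71 CPM in vehicle. KCNIP3, often its partner, stood at 33.7, 18.9, 36.1 and 24.6 CPM in the same order. KCNE4 stood at 11.5, 5.64, 15.5 and 8.50 CPM, so TP15 and TP17 were the highest for all 3 genes. KCNS3 had the opposite order, at 4.89, 14.9, 2.02 and 12 CPM. The smooth muscle marker sum was 1129, 495, 976 and 613 CPM, and the macrophage sum 254, 138, 263 and 210 CPM, in the same animals. TP15 and TP17 were also highest in the pericyte, endothelial, nerve and undifferentiated spermatogonia sums. They were lowest in the germ cell sum, at 207, 276, 187 and 302 CPM in the same order. The Leydig, Sertoli and dividing cell sums and PAX8 did not split that way. TP15 and TP17 were also the shallowest libraries, with 21998786 and 21824233 counts, and had the lowest TMM factors, 0.939 and 0.905. The part of those cell types or of the libraries in the differences was not tested.

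KCNH7, an ether-a-go-go related gene, had log2 changes of 0.20 ± 0.32, -0.99 ± 0.31 and -1.19 ± 0.31 at 48 h, at 96 h and from 48 h to 96 h (adjusted p 0.732, 0.0502 and 0.0930 by edgeR).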
